A study of Mus musculus with 121 samples.

Results

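Interferon-stimulated genes were followed here as a module of 46 genes, chosen by symbol from a list of classical members of the response and found in both count tables by their Ensembl identifiers, out of 25759 genes in all. They fall into 6 roles: 3 signalling and transcription factors (Irf7, Irf9, Stat2), 7 nucleic acid sensors, 5 members of the oligoadenylate synthetase family, 17 antiviral effectors, 8 genes of ISG15 and of ubiquitin-like or ADP-ribosyl modification, and 6 interferon-inducible GTPases. After a filter on low counts, 45 members were tested in adipose tissue, 44 in liver on chow and high-fat diet, and 45 in liver on the Control and Alios diets. Igtp, an interferon-inducible GTPase, had a total of 2 counts in the 45 adipose libraries and 0 in the 75 liver libraries and was not tested. Its gene model overlaps that of Irgm2 on the same strand, so that low count does not show a low transcript level. Oas3 fell below the filter in liver on chow and high-fat diet.

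RNA sequencing of liver and gonadal adipose tissue compared C57BL/6 mice of 3 genotypes, wild type (WT), heterozygous (HET) and knockout (KO), for the gene written PEP in the labels, which was taken here to be Pepd. Its product, prolidase, releases proline and hydroxyproline from the ends of dipeptides. From 8 weeks of age and for 18 weeks, the mice were kept on chow, on a 45% high-fat diet (HFD), on the Alios diet or on the diet labelled Control. Adipose tissue was taken from 4 WT, 8 HET and 5 KO mice fed chow and from 8 WT, 11 HET and 9 KO mice fed HFD. The fifth labelled chow WT adipose sample, WT 1, matched no column by name and was not analysed here. One adipose column matched no label and was not used, and whether it holds that library is not known. Liver came from 5 WT, 8 HET and 5 KO mice kept on chow, 8 WT, 11 HET and 9 KO mice given HFD, 5 WT, 4 HET and 1 KO mice given the Control diet, and 6 WT, 5 HET and 8 KO mice given the Alios diet. The labels give each mouse a number, so that both tissues of a mouse could be matched. No label says how the allele was made or names a tissue-specific driver.

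Levels are given as CPM, counts relative to the scaled library size. Total counts ran from 4236655 to 6699887 in adipose libraries and from 42692 to 8854246 in liver libraries, where the next lowest total was 1027087. Pepd stood at 6.71 to 33.6 CPM in the adipose tissue of chow KO mice against 59.1 to 101 CPM in WT, and at 0.472 to 3.11 CPM in their liver against 40.5 to 49.8 CPM in WT. On HFD it stood at 15.4 to 35.8 CPM in KO against 93.9 to 115 CPM in WT in adipose tissue and at 0.87 to 2.81 CPM against 42.0 to 63.3 CPM in liver. One HFD mouse with a HET label, PEP323, had Pepd in the KO range in both tissues, 21.8 CPM in adipose tissue and 1.22 CPM in liver.

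Type I interferons are secreted when cells sense foreign or misplaced nucleic acid, and they signal through a receptor shared by nearly all cell types. Receptor-bound kinases phosphorylate STAT2, which acts in a complex with IRF9 at a promoter element called the interferon-stimulated response element (ISRE), while the response to interferon gamma runs through another element, the gamma-activated site (GAS). The genes switched on in this way sense, degrade or trap viral RNA and proteins, and several of them, such as Irf7 and Usp18, amplify or damp the response itself. In adipose tissue and liver, resident macrophages and other immune cells as well as adipocytes and hepatocytes can mount this response.

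The ISRE is the element through which the type I response is known to act, and promoters of members that hold its core are shown for that reason. In the RefSeq promoter table (GRCm38.p6, 250 bases before to 50 after each start), 34 of the 46 members had a promoter, 41 promoters in all. The ISRE core was searched as GAAA, any 2 bases and GAAA again, on either strand (TTTC, 2 bases, TTTC when read from the other), and matched in 18 members, in 46.3% of the members' promoters against 3.44% of all 32851 promoters. The other members with a promoter in the table held no match in this window. The GAS core TTCNNNGAA, which reads the same on both strands, matched in 8 members, in 19.5% of the members' promoters against 8.30% of all. The stretches below are 70 bases long and end at or before the start of the gene, 5′ to 3′ on the gene's strand, with the ISRE core matches in capitals. They lie at chr4:156200851-156200920 (minus strand) for Isg15, chr19:34640764-34640833 (plus) for Ifit1, chr19:34583360-34583429 (plus) for Ifit3, chr8:61928017-61928086 (plus) for Ddx60, chr5:120777695-120777764 (minus) for Oas3 and chr8:71537560-71537629 (minus) for Bst2.
Isg15: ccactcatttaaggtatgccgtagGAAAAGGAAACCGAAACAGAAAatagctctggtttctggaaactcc
Ifit1: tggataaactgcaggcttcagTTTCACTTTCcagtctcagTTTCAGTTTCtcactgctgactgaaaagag
Ifit3: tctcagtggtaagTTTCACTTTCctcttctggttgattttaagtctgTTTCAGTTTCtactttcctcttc
Ddx60: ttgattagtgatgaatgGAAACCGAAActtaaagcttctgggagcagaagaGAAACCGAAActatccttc
Oas3: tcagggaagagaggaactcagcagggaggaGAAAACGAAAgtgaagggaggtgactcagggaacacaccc
Bst2: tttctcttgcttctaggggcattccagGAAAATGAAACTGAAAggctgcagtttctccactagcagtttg
Isg15 held 3 overlapping matches, Ifit1, Ifit3, Ddx60 and Bst2 held 2 each, and Oas3 held 1. A match describes the letters and does not show binding. In the comparison of KO with WT adipose tissue on chow given next, 15 of 17 tested members with an ISRE core in this window rose (median log2 fold change 1.22), as did 15 of 16 with a promoter in the table and no match (median 0.88).

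In the adipose tissue of chow-fed mice, 39 of 45 tested members were higher in KO than in WT and none was lower, in edgeR's quasi-likelihood test at an adjusted p under 0.05 (Benjamini-Hochberg, over all genes). Of all 14536 genes tested, 8.85% were higher and 6.14% lower in this comparison. The median log2 fold change was 1.12 over the members and -0.03 over all genes, and 44 of 45 members had a positive value. The mean z-score of log2 CPM over the tested members, a score per library, was 2.18, 1.42, -0.29, 1.70 and 2.49 in KO 1 to 5 and -0.98, -0.59, -0.09 and -0.28 in WT 2 to 5. Thus 4 of 5 KO mice stood above every WT mouse, and KO 3, mouse PEP358, lay within the WT range.

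**Figure D1:**
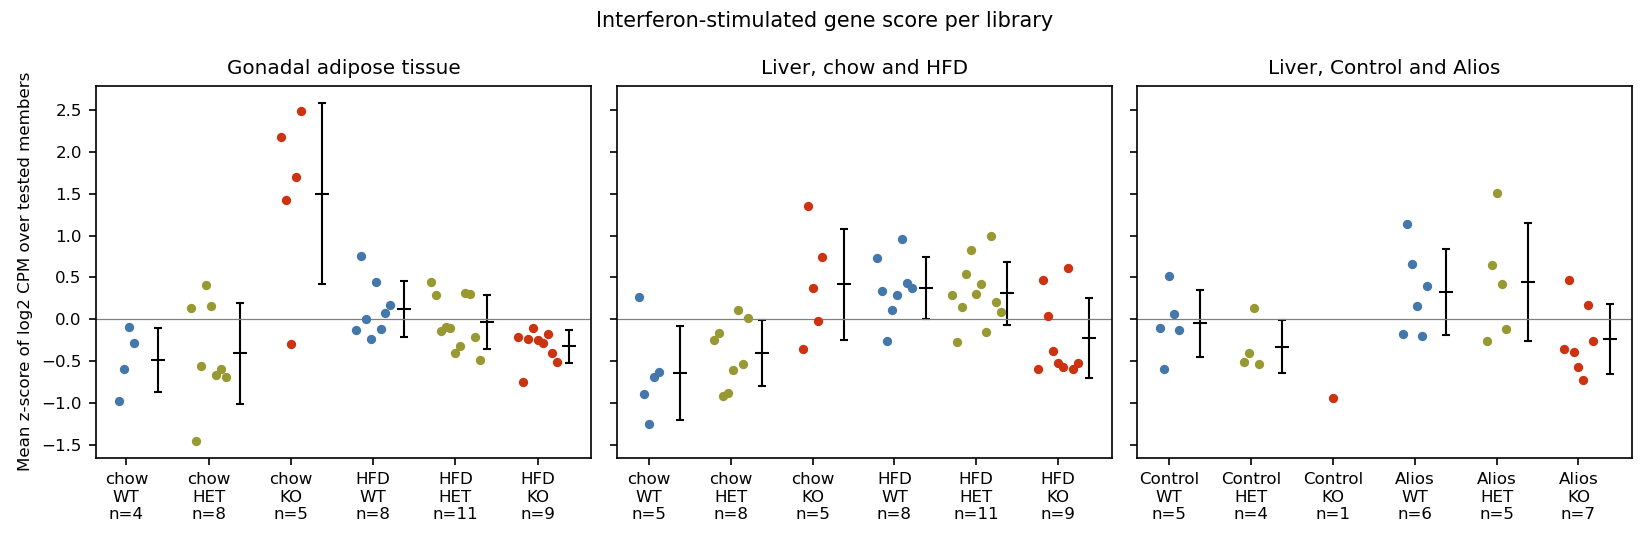
Mean z-score of log2 CPM over the tested members (y axis, no unit) for each library, by diet and genotype, in adipose tissue (left), liver on chow and HFD (middle) and liver on Control and Alios (right); points are libraries, and the black marks give the mean and SD. In adipose tissue the chow KO libraries run from -0.29 to 2.49, while the HFD KO libraries run from -0.75 to -0.11.

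All 3 signalling and transcription factors rose in adipose tissue of chow KO mice. Irf7, the transcription factor that amplifies type I interferon production, stood at 139, 67.6, 30.2, 75.7 and 132 CPM in KO 1 to 5 and at 46.4, 26.8, 38.2 and 22.3 CPM in WT 2 to 5. KO 3 was within the WT range and the other KO mice were above it, with a log2 fold change of 1.41 (SE 0.29, edgeR adjusted p = 0.00112). Stat2, which carries the signal from the receptor into the nucleus, had a log2 fold change of 1.03 (SE 0.20, edgeR adjusted p = 0.000771). Irf9, its DNA-binding partner, was only just past the threshold, at 0.66 (SE 0.23, edgeR adjusted p = 0.0471), and 3 of 5 KO mice exceeded every WT mouse.

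Of the 7 nucleic acid sensors, 6 rose, with a median log2 fold change of 0.83. Zbp1, which binds nucleic acid in the Z conformation and can start cell death, stood at 114, 60.0, 9.64, 143 and 212 CPM in KO 1 to 5 and at 9.28, 19.7, 20.9 and 15.2 CPM in WT 2 to 5. Its log2 fold change of 2.72 (SE 0.54, edgeR adjusted p = 0.000879) was the largest among the sensors, with KO 3 again within the WT range. Ddx58, the cytosolic RNA sensor RIG-I, stood at 84.5, 63.3, 43.8, 93.7 and 99.9 CPM in KO and at 36.6, 44.6, 47.0 and 45.4 CPM in WT, a log2 fold change of 0.83 (SE 0.14, edgeR adjusted p = 0.000321). The helicases Dhx58 (1.10) and Ddx60 (1.13), the RNA-editing enzyme Adar (0.82) and the kinase Eif2ak2, which stops translation on double-stranded RNA (0.46), also rose. Ifih1, the sensor of long double-stranded RNA, was at 0.30 (SE 0.11, edgeR adjusted p = 0.069).

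The oligoadenylate synthetases make a messenger that activates RNase L, and all 5 family members rose, by a median of 1.93 on the log2 scale. Oas2 (ENSMUSG00000032690, chromosome 5 from 120730333 to 120749853, minus strand, GRCm38) had the smallest adjusted p of the module. It stood at 125, 74.9, 24.5, 141 and 178 CPM in KO 1 to 5 and at 18.2, 19.4, 26.3 and 22.8 CPM in WT 2 to 5, a log2 fold change of 2.32 (SE 0.34, edgeR adjusted p = 0.000108). KO 3 lay within the WT range, and the other KO mice were at least at 74.9 CPM. Oasl2 (chromosome 5 from 114896936 to 114912234, plus strand), a synthetase-like relative, stood at 138, 89.1, 33.5, 156 and 239 CPM in KO and at 30.0, 29.9, 40.8 and 36.7 CPM in WT. Its log2 fold change was 1.93 (SE 0.30, edgeR adjusted p = 0.000126). Oas3, whose promoter is shown above, had the largest log2 fold change of the module, 3.07 (SE 0.69, edgeR adjusted p = 0.00252), from 21.3, 6.11, 0.98, 15.1 and 33.7 CPM in KO and 1.46, 1.92, 1.59 and 2.3 CPM in WT. KO 3 was below every WT mouse for Oas3 and for Oas1a (1.63). Oas1a has near-identical neighbours whose reads the counting may have split.

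Among the 17 antiviral effectors, 13 rose, with a median log2 fold change of 0.93. Xaf1, a partner of an inhibitor of apoptosis, stood at 70.04, 71.9, 40.2, 74.4 and 74.7 CPM in KO 1 to 5 and at 30.2, 28.3, 44.7 and 35.6 CPM in WT 2 to 5. The 4 high KO mice were close together and KO 3 was within the WT range, at a log2 fold change of 0.93 (SE 0.16, edgeR adjusted p = 0.000347). Rtp4 (1.55), Ifi44 (1.80), the GTPase Mx1 (1.65), Helz2 (1.27), Ifit1 (1.22), Mx2 (1.21), Bst2, which tethers budding virions (1.08), and the nuclear body protein Sp100 (1.02) rose by more than a log2 of 1. Mx1 is defective in most inbred strains, C57BL/6 among them, so its transcript stands for the response and not for a working protein. Smaller rises were called for Rsad2, also known as viperin (0.83, with 5 of 5 KO mice above every WT mouse), the nucleotide kinase Cmpk2 (0.67), Samd9l (0.62) and Ifi35 (0.39). The members not called were Ifit2 at 0.56 (edgeR adjusted p = 0.0626), Ifit3 at 0.49 (0.183), Ifi27l2a at 0.72 (0.239) and Ifi27 at -0.46 (0.175). Ifi27 was the only member with a negative value, and it stood at 269, 568.3, 631, 226 and 290 CPM in KO and at 399, 550, 602 and 630 CPM in WT, so that the 3 lowest KO libraries were those with the highest module scores.

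ISG15 is a ubiquitin-like protein that is attached to other proteins, and 7 of 8 genes of this and related modifications rose. Trim30a, a ubiquitin ligase of the tripartite motif family, stood at 77.2, 45.1, 27.9, 83.9 and 103 CPM in KO 1 to 5 and at 15.1, 25.8, 23.0 and 27.1 CPM in WT 2 to 5. Here 5 of 5 KO mice were above every WT mouse, at a log2 fold change of 1.57 (SE 0.26, edgeR adjusted p = 0.000225), although reads may be shared with its close paralogs. Herc6, the enzyme that attaches ISG15 in mice, stood at 33.7, 25.3, 14.0, 35.4 and 46.7 CPM in KO and at 10.9, 15.4, 16.1 and 14.8 CPM in WT (log2 fold change 1.12, SE 0.20, edgeR adjusted p = 0.000466). KO 3 was again inside the WT range. Isg15 itself was at 1.46 (SE 0.29, edgeR adjusted p = 0.00083), and Usp18, which removes ISG15 and blocks signalling at the receptor, was at 1.00 (SE 0.20, edgeR adjusted p = 0.000784). Parp14 (1.12), the ligase Trim25 (0.76) and Dtx3l (0.70) rose as well. Parp9, whose gene overlaps that of Dtx3l on the opposite strand, was at 0.38 (edgeR adjusted p = 0.0855), and whether the counting used the strand is not given in the sources used here.

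All 5 tested interferon-inducible GTPases, a group in which some proteins attack the membranes of vacuoles around microbes, rose by a median of 1.69 on the log2 scale. Irgm1 (chromosome 11 from 48861968 to 48871683, minus strand) stood at 125, 82.8, 43.6, 147 and 247 CPM in KO 1 to 5 and at 29.8, 38.6, 51.4 and 34.3 CPM in WT 2 to 5, a log2 fold change of 1.74 (SE 0.28, edgeR adjusted p = 0.000191). Gbp3, a guanylate-binding protein, stood at 118, 91.9, 46.1, 127 and 180 CPM in KO and at 25.8, 26.9, 58.0 and 29.4 CPM in WT, a log2 fold change of 1.69 (SE 0.30, edgeR adjusted p = 0.000388). For both genes WT 4 was the highest WT mouse and exceeded KO 3, while the other KO mice were above it. Iigp1 (2.43, SE 0.52, edgeR adjusted p = 0.00158), Gbp7 (1.41) and Gbp2 (1.25) rose too, and reads of the guanylate-binding proteins may be shared among neighbouring copies.

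**Figure D2:**
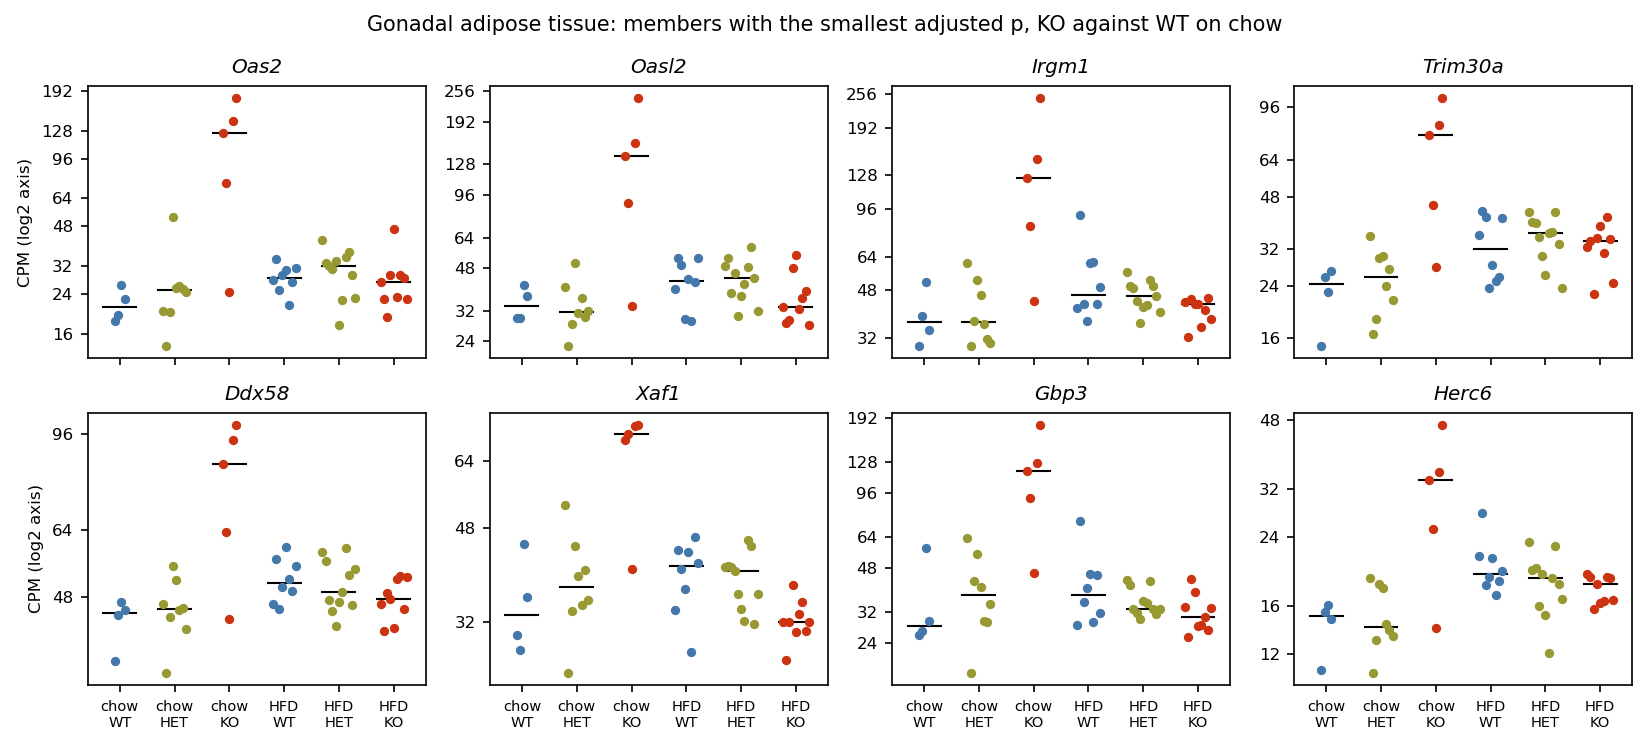
CPM (y axes, log2 scale) of the 8 members with the smallest adjusted p for KO against WT on chow, in every adipose library by diet and genotype; points are libraries and lines are group medians. For Oas2 the chow KO points run from 24.5 to 178 CPM against 18.2 to 26.3 CPM in chow WT, and the HFD KO points run from 19.0 to 46.6 CPM.

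The size of this call rests on an estimate of the spread shared by all 6 adipose groups. In a fit of only the chow KO and WT libraries, 0 of 45 members and 0 of 12995 genes passed, although the members' median was 1.13 and 35 of them had an unadjusted p under 0.05 (lowest edgeR adjusted p 0.319). The mice fell into 2 runs of numbers, PEP301 to PEP400 and PEP545 to PEP597. Within the low run (3 KO, 2 WT) 0 members were called by edgeR, with a median of 1.06 and 36 at an unadjusted p under 0.05. Within the high run (2 KO, 2 WT) 35 rose and Ifi27 fell. Of all genes, 0 of 15081 were called in the low run and 4915 of 14277 in the high run.

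Markers of immune cells moved with the module in chow adipose tissue, and their part in the result was not tested. In bulk tissue, fewer cells of a type and less RNA per cell cannot be told apart. All 6 B cell markers rose (summed 24.0 to 1878 CPM in KO against 14.7 to 58.1 in WT), as did 4 of 4 tested neutrophil markers (19.1 to 777 CPM against 12.7 to 40.4), 8 of 18 macrophage markers (2783 to 15540 CPM against 1345 to 5795) and 2 of 11 T and NK cell markers (29.1 to 141 CPM against 17.3 to 41.2). None of the B, T and NK cell markers was at 0 in every library of either group. KO 3, the mouse with the module at the WT level, had the lowest B cell (24.0 CPM), neutrophil (19.1 CPM) and macrophage (2783 CPM) sums of the KO mice. Of plasmacytoid dendritic cells, professional makers of interferon, 1 of 4 tested markers (Ly6d, also a B cell gene) rose, Cox6a2 was at 0 in every chow KO and WT library, and Siglech stood at 0.496 to 3.17 CPM in KO and 1.15 to 3.53 CPM in WT. Of 10 adipocyte markers, 2 fell, and their sum was 9809, 18415 and 18711 CPM in KO 4, 1 and 5 but 59137 and 59630 CPM in KO 2 and 3, against 35592 to 55515 CPM in WT. KO 1, 4 and 5, with the highest module scores, had the lowest adipocyte sums of the KO mice. KO 2 (score 1.42) and KO 3 (score -0.29) had sums above every WT mouse. The part of adipocytes in the result was not tested. Epididymis and testis markers exceeded 10000 CPM in chow KO 1, WT 2 and HET 2, and without these libraries 34 members rose.

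The rest of the pathway was read from lists of related genes in the same comparison. No interferon ligand could be tested. The 14 Ifna and Ifnab genes had 0 counts in all adipose libraries. This allows up to 0.0112 CPM of counted reads over the 45 libraries pooled, and more in the chow groups alone. Reads shared among these related genes may have been left out, so 0 counts do not show that their transcripts were absent. Ifnb1 had 1 count, Ifnz had 19 counts spread over 13 libraries, and Ifng had 62 counts spread over 30 libraries. Among the receptor and JAK-STAT genes the kinase Jak2 (0.61) and the transcription factor Stat3 (0.43) rose. Of 16 upstream sensors and adaptors 6 rose, among them Samhd1, a nucleotide hydrolase (1.65), the adaptor Tmem173, known as STING (1.60), the DNA receptor Tlr9 (1.87) and the kinase Ikbke (1.22). Of 10 negative regulators 5 rose, led by Socs3 (2.78), Irf2 (0.58) and Ptpn2 (0.65), and the phosphatase Ptpn11 fell by 0.52 on the log2 scale. Of 14 tested genes better known for their response to interferon gamma 11 rose, with Gbp8 (2.0), Irf1 (1.36), Gbp5 (1.82), the peptide transporter Tap1 (1.70) and Nlrc5 (1.41) at the smallest adjusted p. Of 45 further interferon-stimulated genes outside the module 31 rose and 2, Daxx and Tdrd7, fell.

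On HFD the KO adipose tissue did not show this pattern. The edgeR test called 0 of 45 members between KO and WT, where 0.0344% of all genes were called, 0.0275% lower. DESeq2 called 0 members as well. The median log2 fold change was -0.21, 39 members had a negative value, and 10 had an unadjusted p under 0.05, all lower in KO. At that level 1154 of all 14536 genes were lower and 367 higher. Rtp4 had the smallest adjusted p, 0.305, and stood at 10.2 to 17.0 CPM in KO (median 15.3) and at 16.0 to 35.0 CPM in WT (median 19.2), with 8 of 9 KO mice below every WT mouse. Usp18 stood at 6.44 to 11.2 CPM in KO (median 9.45) and 8.93 to 14.4 CPM in WT (median 12.7), Isg15 at 4.79 to 9.67 CPM (7.86) and 6.11 to 12.6 CPM (9.05), Irf7 at 17.1 to 28.5 CPM (20.3) and 21.8 to 39.4 CPM (29.2), and Ifit1 at 3.22 to 8.82 CPM (7.3) and 6.58 to 11.6 CPM (8.87). The groups overlapped for each of these genes. Without KO 3, 1 member was called.

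The difference of the KO effect between diets, KO minus WT on HFD less KO minus WT on chow, was tested in the same fit. It was negative and called for 36 of 45 members and positive for none, while 4.66% of all genes were called lower and 1.67% higher. The members' median was -1.32 against -0.02 over all genes. Called were 2 of 3 signalling factors, 7 of 7 sensors, 5 of 5 synthetases, 11 of 17 effectors, 6 of 8 genes of ISG15 and related modification and 5 of 5 GTPases. The 8 with the smallest adjusted p were Irgm1 (-2.14, edgeR adjusted p = 0.000783), Xaf1 (-1.21, 0.000783), Rtp4 (-2.19, 0.000837), Oasl2 (-2.14, 0.000965), Oas2 (-2.37, 0.000965), Usp18 (-1.40, 0.000965), Ddx60 (-1.65, 0.000968) and Gbp3 (-2.04, 0.00108). Irgm1 stood at 32.2 to 45.1 CPM in HFD KO (median 42.8) and at 36.9 to 91.0 CPM in HFD WT (median 46.01), against the chow values above. Oas2 stood at 19.0 to 46.6 CPM in HFD KO (median 27.3) and at 21.4 to 34.3 CPM in HFD WT (median 28.4). Ddx60 stood at 28.2, 16.4, 8.33, 20.1 and 18.5 CPM in chow KO and 6.91, 8.14, 10.96 and 7.38 CPM in chow WT, but at 6.38 to 11.3 CPM in HFD KO (median 7.70) and 8.55 to 13.8 CPM in HFD WT (median 12.5). On chow most KO mice were thus above WT for this helicase, and on HFD 7 of 9 KO mice were below every WT mouse. B cell markers changed in the same direction (6 of 6 lower), as did 2 of 4 neutrophil and 2 of 18 macrophage markers, and their part was not tested. On HFD the summed B cell markers stood at 14.1 to 140.5 CPM in KO and 12.2 to 127.5 CPM in WT. In the fit of only the 4 groups compared 27 members were called, and without the libraries rich in epididymis markers 28. Of all genes, 220 of 14070 and 645 of 14466 were called in turn. Within the low run of mouse numbers 0 were called by edgeR (median -1.32, 36 at an unadjusted p under 0.05), and within the high run 34 were lower and Ifi27 was higher. Of all genes, 0 of 15081 were called in the low run and 2903 of 14277 in the high run.

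Read by diet within a genotype, which uses the same libraries as the comparisons above, 38 of 45 members were lower on HFD than on chow in KO adipose tissue and none was higher, where 20.6% of all genes were lower and 15% higher. The median was -1.05. Immune markers moved with them: 6 of 6 B cell, 4 of 4 neutrophil, 3 of 11 T and NK cell and 6 of 18 macrophage markers were lower, while 2 macrophage and 2 of 10 adipocyte markers were higher and 1 adipocyte marker lower. The median summed B cell markers were 530 CPM on chow and 31.9 CPM on HFD, and the adipocyte sums 18711 and 36357 CPM. The part of these markers in the result was not tested. Irf7 had the smallest adjusted p, at -2.01 (SE 0.23, edgeR adjusted p = 9.75e-08), and 9 of 9 HFD KO mice were below every chow KO mouse, KO 3 included. The same held for Usp18 (-1.30), Xaf1 (-1.04), Gbp3 (-1.81), Mx2 (-1.31), Ifit1 (-1.44) and Dtx3l (-0.63). How many of all genes separated in this way was not counted, so this does not set these members apart from other genes. Not called were Oasl1, Samd9l, Rsad2, Eif2ak2, Trim25, Ifi27l2a and Ifi27. Within the low run of mouse numbers 20 members were lower, and within the high run 35 were lower and 1 higher. Of all genes, 1029 of 15081 and 5333 of 14277 were called in turn. In WT adipose tissue 1 of 45 members, Eif2ak2, was higher on HFD (0.53, edgeR adjusted p = 0.0297), where 1.60% of all genes were higher. This share of the members was not far above that of all genes. Eif2ak2 stood at 24.4, 24.1, 19.6 and 31.2 CPM in chow WT and at 26.3 to 41.2 CPM in HFD WT (median 36.2), and only HFD WT 6 fell inside the chow range. That library also carried 49950 CPM of hepatocyte markers. The count was 0 without HFD WT 1, HFD WT 3 or chow WT 2, 2 without HFD WT 2 or 5, and 3 without HFD WT 4, HFD WT 7 or chow WT 3. Within either run of mouse numbers 0 members and 0 genes were called by edgeR. In HET adipose tissue 9 members were higher and 2 lower on HFD, where 15.6% of all genes were higher and 18.8% lower. The members' share called higher was thus not far above that of all genes, and their share called lower was below it. Higher were Oasl1 (1.44), Oas3 (1.48), Oas1a (1.18), Trim25 (0.83), Samd9l (0.52), Trim30a (0.46), Rsad2 (0.46), Parp14 (0.40) and Adar (0.37), and Ifi27 and Ifi35 fell by 0.57 and 0.28 on the log2 scale. In the same comparison 12 of 18 macrophage (median sum 2318 CPM on chow and 5856 CPM on HFD), 6 of 11 T and NK cell (20.4 and 67.8 CPM) and 4 of 6 B cell markers were higher, and 4 of 10 adipocyte markers were lower (55632 and 34449 CPM). One macrophage marker was lower, and the part of these markers was not tested. Within the low run of mouse numbers 3 members were higher and 2 lower in HET, and within the high run 7 were higher. Of all genes, 3182 of 15081 and 914 of 14277 were called in turn.

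**Figure D3:**
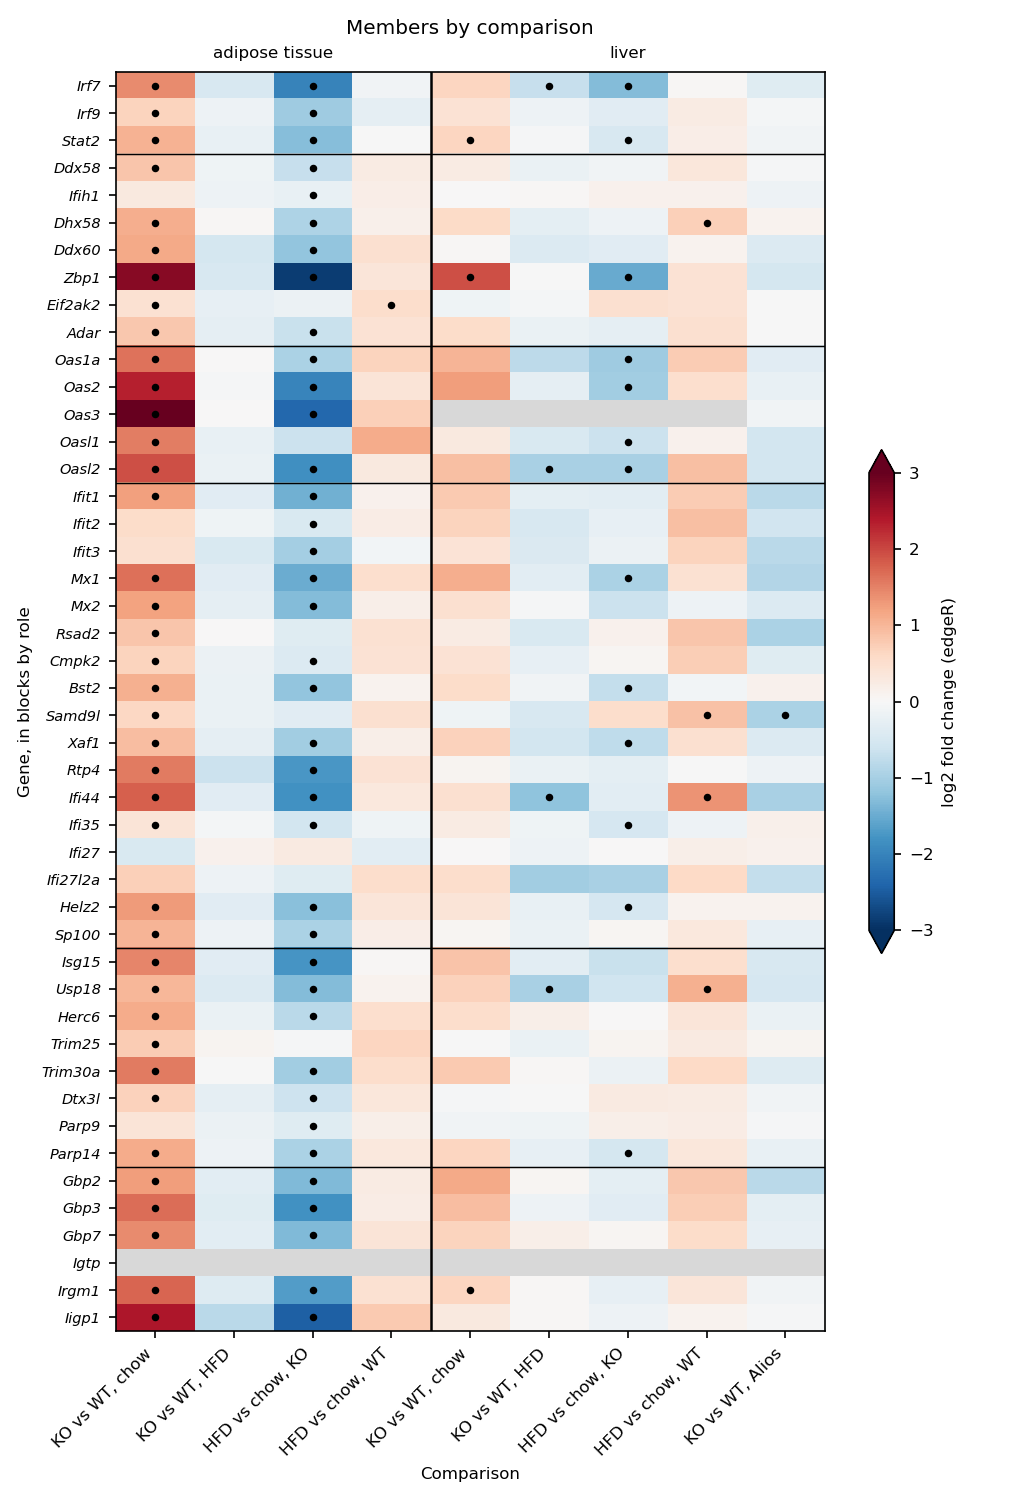
Log2 fold change of each member (rows, in blocks by role) in 9 comparisons (columns, adipose tissue on the left, liver on the right); red is higher and blue lower in the first-named group, dots mark an edgeR adjusted p under 0.05, and grey marks members not tested. The column of KO against WT on chow in adipose tissue carries 39 dots and the column on HFD none, while in liver those columns carry 3 and 4.

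In liver on chow, 3 of 44 tested members rose in KO and none fell, where 2.47% of all 11064 genes rose and 0.931% fell. The members' share called was therefore not far above that of all genes, but 39 of 44 had a positive log2 fold change and the median was 0.52 against 0.01 over all genes. At an unadjusted p under 0.05, 24 members were higher and 0 lower, against 1249 higher and 982 lower of all 11064 genes. Zbp1 stood at 13.2, 34.0, 37.4, 14.5 and 34.2 CPM in KO 1 to 5 and at 14.2, 2.44, 3.84, 5.42 and 5.55 CPM in WT 1 to 5. WT 1 exceeded KO 1, and the other WT mice were below every KO mouse, at a log2 fold change of 1.93 (SE 0.38, edgeR adjusted p = 0.00358). Stat2 stood at 103, 172, 186, 87.8 and 163 CPM in KO and at 103, 71.3, 69.6, 114 and 94.8 CPM in WT, a log2 fold change of 0.64 (SE 0.18, edgeR adjusted p = 0.0341). Irgm1 stood at 53.7, 99.5, 74.3, 113 and 92.4 CPM in KO and at 68.6, 42.5, 47.2, 59.9 and 59.0 CPM in WT, a log2 fold change of 0.64 (SE 0.18, edgeR adjusted p = 0.0388). KO 2, 3 and 5 were above every WT mouse for all 3 genes. Isg15 was not called (0.85, edgeR adjusted p = 0.107) although its 5 KO values, 9.56, 13.2, 11.9, 9.1 and 16.3 CPM, all exceeded the WT values of 7.87, 5.37, 3.84, 8.8 and 6.05 CPM.

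The liver count depended on single libraries and on the fit. It was 11 without KO 1 or WT 1, 10 without KO 4, 6 without WT 4, and 1 without KO 2, KO 3, KO 5, WT 2 or WT 3. It was 0 in the fit of only these groups (18 at an unadjusted p under 0.05, lowest edgeR adjusted p 0.19), 0 within the low run of mouse numbers (median 0.19) and 14 within the high run (median 1.01). Of all genes, 1 of 9562 was called in the fit of only these groups. In the low run 1 of 11013 genes was called, and in the high run 975 of 11260. Of 18 macrophage markers 13 rose (summed 559 to 2541 CPM in KO against 408 to 823 in WT, highest in KO 2, 5 and 3), and so did 2 of 2 tested neutrophil markers (8.8 to 118 CPM against 3.4 to 25.8). Hepatocyte markers summed to 55402 and 58519 CPM in KO 2 and 5, and to 86355 CPM in KO 3, against 98906 to 138452 CPM in WT, and 0 of 9 were called. The part of these markers in the result was not tested. Of the pathway lists, 2 of 10 receptor and JAK-STAT genes (Tyk2, Ifngr1), 2 of 12 sensors and adaptors (Samhd1, Ikbke), 1 of 9 negative regulators (Ptpn6), 5 of 12 gamma-responsive genes (Gbp8, Psmb8, Psmb9, Tap1, Cd274) and 6 of 41 further interferon-stimulated genes rose, and none fell.

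In liver on HFD, 4 of 44 members were lower in KO and none was higher, where 1.72% of all genes were called, 1.15% lower and 0.569% higher. Usp18 stood at 6.29 to 12.8 CPM in KO (median 8.38) and at 8.78 to 29.2 CPM in WT (median 16.6). Its log2 fold change of -0.98 (SE 0.18, edgeR adjusted p = 0.00419) kept its call in 23 of 23 alternatives that used both runs of mouse numbers. Within a single run Usp18 was not called (edgeR adjusted p = 0.145 in the low run and 0.211 in the high run). Oasl2 stood at 4.48 to 10.7 CPM in KO (median 5.57) and 8.38 to 16.1 CPM in WT (median 10.98), with only KO 2 inside the WT range (-0.98, SE 0.23, edgeR adjusted p = 0.0187). Ifi44, a cytoplasmic protein induced with interferon, stood at 1.06 to 3.48 CPM in KO (median 1.65) and 2.39 to 7.17 CPM in WT (median 4.46), at -1.20 (SE 0.30, edgeR adjusted p = 0.0284). Irf7 stood at 11.6 to 30.7 CPM in KO (median 17.2) and 19.0 to 38.4 CPM in WT (median 32.0). Its log2 fold change was -0.69 (SE 0.19, edgeR adjusted p = 0.0413), and its call was lost in 15 of the 23 alternatives that used both runs. The members' median was -0.21, and 15 had an unadjusted p under 0.05, all lower. At that level 897 of all 11064 genes were lower and 846 higher. Of the markers, 0 of 18 macrophage genes were called, while 2 of 6 adipocyte genes (median log2 fold change -0.89) and 1 of 9 hepatocyte genes were lower in KO, and their part was not tested. The summed adipocyte markers stood at 70.1 to 263 CPM in KO and 76.9 to 458 CPM in WT. The count was 2 without KO 3, KO 5, KO 8 or WT 8, and 1 without WT 5. Within either run of mouse numbers 0 members were called by edgeR (medians -0.15 and -0.28). Few genes of any kind were called there, 2 of 11013 in the low run and 3 of 11260 in the high run.

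**Figure D4:**
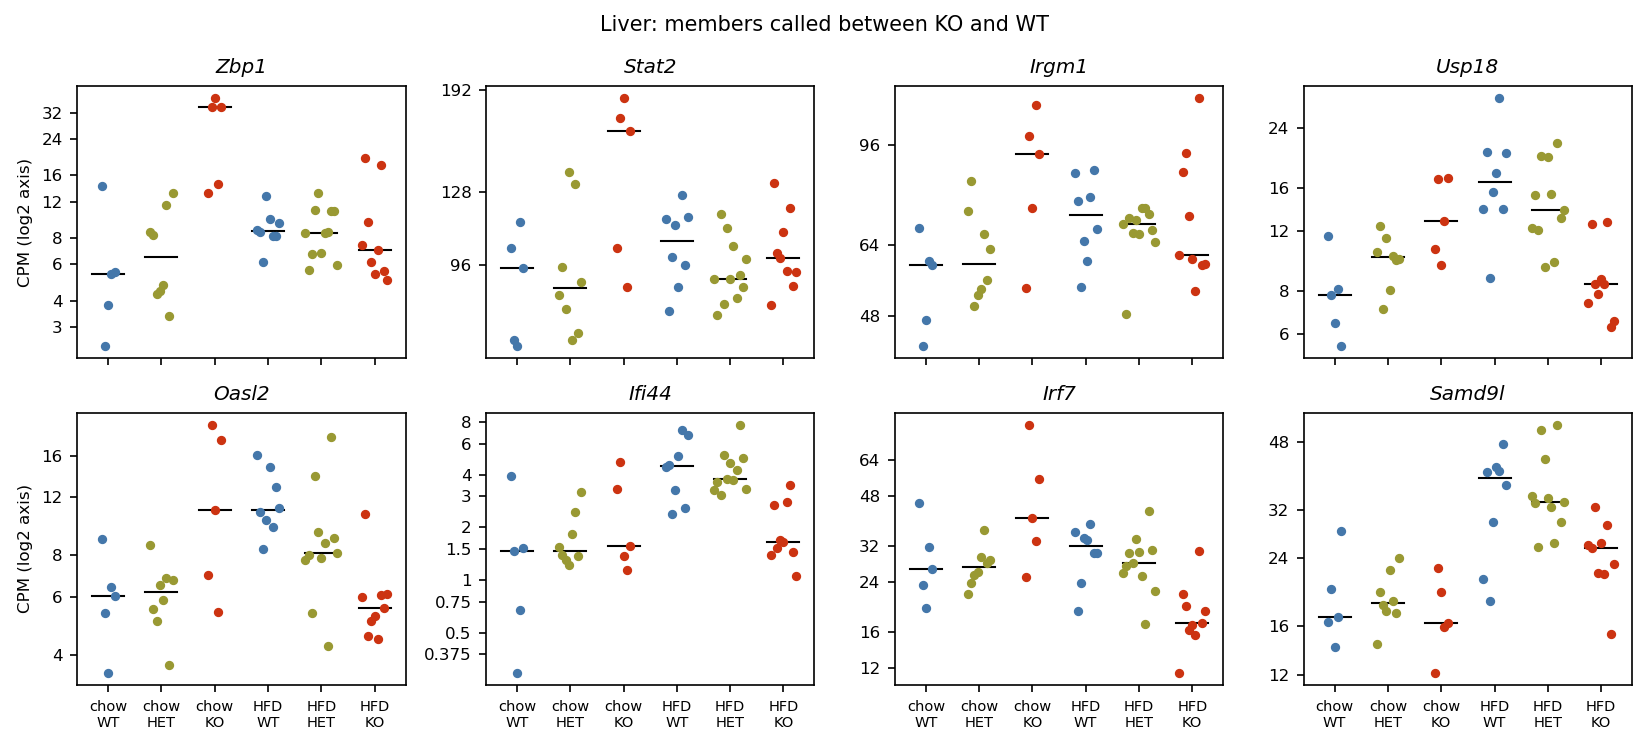
CPM (y axes, log2 scale) in every liver library on chow and HFD, by genotype, for the 7 members called between KO and WT on either diet and for Samd9l, which was called on the Alios diet; points are libraries and lines are group medians. Zbp1 in chow KO runs from 13.2 to 37.4 CPM, and Usp18 in HFD KO runs from 6.29 to 12.8 CPM.

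The difference of the KO effect between diets in liver was called for 3 members, all negative: Usp18 (-1.67, edgeR adjusted p = 0.0226), Oasl2 (-1.88, 0.0389) and Irf7 (-1.34, 0.0485). Of all genes 0.145% were lower and 0.0% higher in this test, and the members' median was -0.68 with 27 at an unadjusted p under 0.05, all lower. At that level 1127 of all 11064 genes were lower and 876 higher. On chow Usp18 stood at 10.7, 17.0, 9.58, 12.8 and 17.1 CPM in KO and 11.6, 7.81, 6.49, 8.12 and 5.55 CPM in WT. Oasl2 stood at 6.99, 19.8, 10.9, 5.40 and 17.9 CPM in KO and 8.96, 5.37, 3.54, 6.43 and 6.05 CPM in WT, and Irf7 at 25.0, 84.9, 40.1, 33.3 and 55.1 CPM in KO and 45.3, 23.4, 19.5, 31.8 and 26.7 CPM in WT. KO 2 and KO 5 were the highest chow libraries for both Oasl2 and Irf7, and they also had the highest macrophage sums, 2541 and 2025 CPM. Macrophage markers moved in the same direction in this test, with 2 of 18 called lower, 15 at an unadjusted p under 0.05 and a median of -1.50, and their part was not tested. The count was 13 without chow KO 1 or 4, 10 without chow WT 4, 9 without HFD KO 2 or 7, 8 without HFD WT 3 or chow WT 1, and 7 without HFD WT 2. It was 1 without chow KO 3, HFD KO 4, 5 or 6, or HFD WT 7 or 8, and 0 without chow KO 2 or 5, chow WT 2, 3 or 5, or HFD WT 5. It was 0 within the low run of mouse numbers and 12 within the high run, where 0 of 11013 and 455 of 11260 genes were called in turn.

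By diet within a genotype, WT liver had 4 members higher on HFD than on chow, where 1.21% of all genes were higher, with a median of 0.42 over the members. They were Usp18 (1.07, SE 0.23, edgeR adjusted p = 0.00893), Samd9l, which restrains translation (0.88, SE 0.20, edgeR adjusted p = 0.0158), Dhx58 (0.71, SE 0.17, edgeR adjusted p = 0.018) and Ifi44 (1.36, SE 0.38, edgeR adjusted p = 0.0461). Samd9l stood at 16.4, 20.02, 14.2, 16.9 and 28.2 CPM in chow WT and at 18.6 to 47.3 CPM in HFD WT (median 38.6), and the groups overlapped. The count was 2 without chow WT 1 and 1 without chow WT 3. It was 0 in the fit of only these groups, where 82 of 10202 genes were called. Within either run of mouse numbers 0 members and 0 genes were called by edgeR (medians over the members 0.22 and 0.61). HET liver had 15 members higher and none lower, where 6.97% of all genes were higher and 7.26% lower, led by Samd9l (0.93, edgeR adjusted p = 7.79e-05), Ifi44 (1.24), Ifi27l2a (1.27) and Usp18 (0.63). There 2 of 18 macrophage, 2 of 6 adipocyte and 2 of 9 endothelial markers were higher and 2 of 9 hepatocyte markers lower, and their part was not tested. KO liver had 13 members lower and none higher, where 6.19% of all genes were lower and 4.51% higher, led by Irf7 (-1.31, edgeR adjusted p = 0.000157), Bst2 (-0.72) and Zbp1 (-1.52). In that comparison 14 of 18 macrophage and 2 of 2 neutrophil markers were lower, and their part was not tested. The KO count was 4, 5 and 3 without chow KO 2, KO 3 and KO 5 in turn. It was 4 in the fit of only these groups, where 632 of 10271 genes were called. Within the low run of mouse numbers the KO count was 0, and within the high run it was 12. Of all genes, 5 of 11013 and 1226 of 11260 were called in these runs.

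On the Alios diet 1 of 45 members, Samd9l, was lower in KO liver (-0.94, SE 0.18, edgeR adjusted p = 0.0155), where 0.224% of all genes were called, 0.103% lower and 0.121% higher. Samd9l stood at 64.1, 47.5, 54.3, 32.3, 32.1 and 35.3 CPM in WT 1 to 6, and in KO 1 to 7 the highest values were 33.5 and 31.9 CPM and the others lay at 16.7 to 22.0 CPM. KO 8, the library with 42692 counts, had 0 counts of it. On Control it stood at 27.8 to 43.6 CPM in WT and at 18.6 CPM in the single KO mouse, which entered no test. The call was lost without WT 1, WT 3 or KO 7, while 3 members were called without KO 2 and 2 without WT 5. Between Alios and Control 0 members were called by edgeR and 0 by DESeq2 in WT (5 at an unadjusted p under 0.05, all higher) and in HET (11, all higher), where 0.0% and 0.19% of all genes were called, in HET 0.138% higher and 0.0517% lower. At an unadjusted p under 0.05, 539 of all 11595 genes were higher and 437 lower in WT, and 856 and 663 in HET.

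No member was called between HET and WT by edgeR or DESeq2. In adipose tissue 0 members were called on chow (1 at an unadjusted p under 0.05, 0.0% of all genes called) and on HFD (1 and 0.00688%). In liver the chow comparison called 0 (1 and 0.0%), the HFD comparison 0 (1 and 0.00904%), the Control comparison 0 (0 and 0.00862%) and the Alios comparison 0 (0 and 0.00862%). The median log2 fold changes over the members were 0.04 and -0.09 in adipose tissue and lay between -0.15 and 0.08 in liver. In adipose tissue on chow the runs of mouse numbers differed in sign. The median was 0.26 in the low run (40 of 45 members positive, 2 at an unadjusted p under 0.05). It was -0.24 in the high run (41 negative, 5 at an unadjusted p under 0.05). In either run 0 members and 0 of all genes were called. Leaving out mouse PEP323 kept the 2 HFD counts at 0.

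Mice sampled in both tissues allowed the tissues to be set side by side. Of the chow KO mice, PEP346, PEP358, PEP569 and PEP592 had both, with adipose scores of 1.42, -0.29, 1.70 and 2.49 and liver scores of 0.38, -0.02, 0.74 and 1.35. The order of the 4 mice was the same in both tissues, with PEP592 highest and PEP358 lowest. In the 4 chow WT mice with both tissues the order differed. There PEP392 had the lowest adipose score (-0.98) and the highest liver score (0.26). PEP565 had the highest adipose score (-0.09) and the lowest liver score (-1.25). A limma test of the liver minus adipose difference, mouse by mouse, asked whether the KO effect on chow differed between tissues. It was lower in liver for 3 members, Dtx3l (-0.81, SE 0.20, limma adjusted p = 0.0205), Iigp1 (-2.13, SE 0.57, limma adjusted p = 0.0293) and Trim25 (-0.85, SE 0.25, limma adjusted p = 0.043), where 1.58% of all genes were lower. Oas2 (-0.04) and Irf7 (-0.20) were not called. This count was 0 without the mice that are liver KO 2, 3 or 5 or WT 1 or 2, 1 without liver WT 5 and 11 without liver KO 4. On HFD 0 members were called by limma, where 0.0182% of all genes were.

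Across the 44 mice with both tissues, with each group centred on its own mean, the members' Pearson r between tissues had a median of 0.18, against 0.05 over all 10988 genes. Positive values were found for 40 of 45 members. No member passed a permutation test after Benjamini-Hochberg adjustment (0.209% of all genes did), and 11 of 45 had an unadjusted permutation p under 0.05, as did 8.35% of all genes. Irf7 had r = 0.54 (permutation p = 0.00103, adjusted 0.164) and Spearman rho = 0.50 (permutation p = 0.00151, adjusted 0.264), and r was 0.52 without the 2 mice farthest from the median liver value. Oasl2 had r = 0.57 (permutation p = 0.0012, adjusted 0.176) and rho = 0.40 (permutation p = 0.0175, adjusted 0.534), and r was 0.43 without the 2 farthest mice. Within the low run of mouse numbers (25 mice) r was 0.68 for Irf7, 0.58 for Oasl2 and 0.24 as the members' median, and within the high run (19 mice) these values were 0.07, 0.30 and 0.08.

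**Figure D5:**
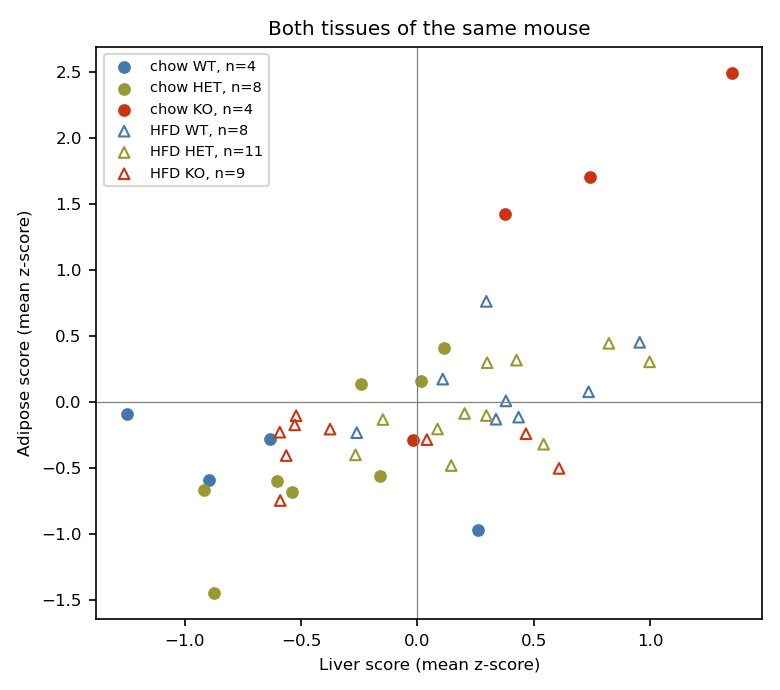
Module score (mean z-score, no unit) in liver (x axis) and adipose tissue (y axis) of the same mouse, for 44 mice by diet (filled circles chow, open triangles HFD) and genotype (colour). Of the 4 chow KO mice with both tissues, 3 lie at adipose scores of 1.42 to 2.49 with liver scores of 0.38 to 1.35, and PEP358 lies near 0 in both.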

How the data were processed

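Raw read counts per gene, 1 table for each tissue, were deposited by the authors. The submitters' processing notes name STAR 2.5.1b, featureCounts 1.5 and the build GRCm38.p5. The sources used here give neither the strand setting nor the annotation release. Symbols and coordinates came from GENCODE M21. Of 121 labelled samples 120 had a column, and 1 unlabelled column was not used. Groups came from the labels. Separate mice are labelled by number, so the p-values rest on variation among mice.

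In R 4.3.3, edgeR 4.0.16 was run in 3 fits (adipose tissue, the chow and HFD livers, and the Control and Alios livers), with filterByExpr (minimum count 10, minimum total 15), TMM scaling and two-sided quasi-likelihood tests, with adjustment over all genes and a threshold of 0.05. SE is the log2 fold change divided by the square root of F. Tissue differences used limma 3.58.1, and correlations used 100000 permutations within groups. Scores left out libraries under 100000 counts. Values in every library are given for up to 8 called members with the smallest adjusted p in each main comparison. The alternatives were DESeq2 1.42.0, RLE factors, no filter, only the groups compared, a replicate block, the run of mouse numbers and each library left out. One gene of the receptor and JAK-STAT list is not reported here. The members and lists were chosen with earlier results of these data known. The tests were tried on simulated data. Over 392 pairs of libraries within groups, none agreed within sampling noise.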

Additional observations from a re-analysis of the deposited data

Results flagged for a closer look

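Some libraries stood apart from the others of their group for a member described above, by Dixon's test at 95%, which chance meets in about 1 of 20 groups. This was so for 9 of 88 groups of values checked. In adipose tissue on chow they were Xaf1 at 40.2 CPM in KO 3, the lowest, and Gbp3 at 58.0 CPM in WT 4, the highest. In adipose tissue on HFD they were Gbp3 at 74.0 CPM and Irgm1 at 91.0 CPM in WT 2, Eif2ak2 at 26.3 CPM in WT 6, Ifit1 at 3.22 CPM in KO 2 and Oas2 at 46.6 CPM in KO 5. In liver they were Oasl2 at 10.7 CPM in HFD KO 2 and Zbp1 at 14.2 CPM in chow WT 1.

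The KO effect differed between diets by a test of the difference itself. In adipose tissue it was lower on HFD for 36 members, among them Irgm1 (-2.14), Xaf1 (-1.21), Rtp4 (-2.19), Oasl2 (-2.14), Oas2 (-2.37), Usp18 (-1.40), Ddx60 (-1.65) and Gbp3 (-2.04). In liver it was lower on HFD for 3 members, Usp18 (-1.67), Oasl2 (-1.88) and Irf7 (-1.34). The KO effect on chow was lower in liver than in adipose tissue for Trim25 (-0.85), Dtx3l (-0.81) and Iigp1 (-2.13). All values are log2 differences.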

How the results depend on the processing

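Where members were called, no alternative turned the sign of the members' median. Where 0 were called it turned for HET against WT in adipose tissue on chow (0.04, but 0.26 in the low run of mouse numbers and -0.24 in the high run), for HET against WT in liver on HFD (-0.03, but 0.0069 in the low run) and on Alios (0.01, with a range of -0.10 to 0.09 over the alternatives) and for the tissue difference on HFD (-0.02, with a range of -0.11 to 0.04). The fit of only the groups compared gave 0 called members for KO against WT on chow in adipose tissue (39 above) and in liver (3), 0 for HFD against chow in WT liver (4) and WT adipose tissue (1), 4 in KO liver (13) and 0 for the liver difference between diets (3). Of all genes, 0, 1, 82, 0, 632 and 0 were called in these fits in turn. DESeq2 gave 6 for liver KO against WT on chow, 8 for the liver difference and 3 for WT adipose tissue on HFD. Without a filter on low counts the first 2 of these were 1 and 1. A covariate for the run of mouse numbers gave 5 for liver KO against WT on chow, where 423 of 11064 genes were called. Without the epididymis-rich libraries, chosen after seeing the data, WT adipose tissue on HFD had 0, where 3 of 14466 genes were called. Without centring, 15 members correlated between tissues in place of 0, and 700 of 10988 genes did in place of 23. With the replicate number as a block the count was 1 for liver KO against WT on chow, 0 on Alios, 0 for WT adipose tissue on HFD and 37 and 31 for the adipose KO effect on chow and its difference. Of all genes, 209, 8, 2, 1532 and 495 were called in turn. Same-numbered libraries shared only a number: their deviations correlated at -0.67 to 0.88, and in no pair of groups did every pair exceed 0.1. Leaving out 1 library gave 33 to 43 and 0 to 1 for the adipose KO effect on chow and HFD, 31 to 43 for its difference, and 0 to 3, 8 to 12 and 33 to 41 for HFD against chow in WT, HET and KO. In liver it gave 1 to 11, 1 to 5 and 0 to 3 for the KO effect on chow, HFD and Alios, 0 to 13 for the difference, and 1 to 6, 10 to 16 and 3 to 16 for HFD against chow. Leaving out 1 mouse, also chosen after seeing the data, gave 0 to 11 for the tissue difference on chow. A limit is depth: liver libraries had a median of 3191160 counts against 5981802 in adipose tissue, and members near 1 CPM there rest on few reads.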

Other observations

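The single KO liver on the Control diet entered no test. It stood below every Control WT liver for 25 of the 46 members and above every one for 2. How many of all genes did so was not counted, so these counts do not set the members apart from other genes. Irf7 was at 16.6 CPM against 29.6 to 51.0 CPM in the 5 WT livers, Ifit1 at 5.52 CPM against 9.76 to 17.1 CPM, Usp18 at 8.44 CPM against 12.2 to 27.9 CPM and Isg15 at 4.603 CPM against 6.21 to 15.02 CPM. Its score was -0.94, against -0.60 to 0.52 in WT. With 1 mouse this is a description of that library.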
